A study of Mus musculus with 10 samples.

Results

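Adipocyte and lipid storage genes were followed across 10 mammary tumors of the mouse, 5 shPC and 5 Ctrl. A set of 36 genes was chosen by name, for white fat, beige fat and the storage or release of triglyceride, and 33 of the 36 were measured among 19505 genes in all, each by 1 probe set. Adrb3, Acsl1 and Cfd were not analysed here, since no probe set in the table used names them. All tumors were started with M-Wnt, a mammary cancer line of the mouse that here carried an inducible shRNA against Pcx, the gene of pyruvate carboxylase, and 50000 cells were placed in fat pad number 4 of female C57BL6/J mice of 8 to 12 weeks fed the purified diet AIN-93G. The shPC mice drank water with 150 µg/ml doxycycline, which switches the shRNA on, and the Ctrl mice drank standard water, so shRNA and drug cannot be told apart. Both groups carried the same construct, 1 shRNA sequence, and no group had a scrambled shRNA. RNA came from tumor tissue, host cells included, and 1 Clariom S array was run per tumor. No source says whether any mouse bore several of these tumors, so p-values speak only of the spread among these 10 tumors.

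White fat cells store triglyceride in a single large droplet. Fatty acids enter through lipoprotein lipase and CD36, are joined to glycerol 3-phosphate by acyltransferases, and rest in a droplet coated by perilipins and CIDE proteins. Lipases release them again when the cell is stimulated. PPAR gamma and C/EBP alpha switch on this programme during fat cell formation, and the mature cell secretes hormones such as adiponectin and leptin. The mammary gland lies in a fat pad, so a tumor grown there is surrounded by fat cells of the host. Macrophages and tumor cells can also hold lipid droplets, coated mainly by perilipin 2.

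The values are log2 signals, and differences are shPC minus Ctrl on that scale. None of the members passed the test between the groups: 0 of 33 had an adjusted p under 0.05 in limma, against 0% of all 19505 genes, and their adjusted p ran between 0.311 and 0.983. Without adjustment 2 members, Thrsp and Dgat2, were under 0.05 on the lower side, against 6.25% of all genes, and 0 were on the higher side, against 7.8%. This count rested on single tumors, since it was 18 without shPC 1, 11 without shPC 3, 8 without Ctrl 4, 7 without Ctrl 2 and 0 without any 1 of the other tumors, and the methods' t-test gave 0. The difference was below 0 in 31 of 33 members, against 44.9% of all genes, and its median was -1.31 in the members and 0.04 over all genes. The median of the members was -0.84 without shPC 4 and -0.78 without Ctrl 3. Where leaving out 1 tumor moved a member's difference by more than 1.5 times, values without the tumors that moved it farthest are given beside it. In 0 of the 33 did all shPC tumors lie below all Ctrl tumors, against 1.79% of all genes, and in 0 did they all lie above, against 1.82%. The members spread widely between tumors of the same group. The standard deviation (SD) within the groups had a median of 1.81 in the members and 0.324 over all genes, and 27 of the 33 lay at or above the 95th percentile of all genes. These figures describe a list chosen with earlier results known and carry no test. In whole tumors fewer fat cells and less RNA per fat cell cannot be told apart.

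**Figure D1:**
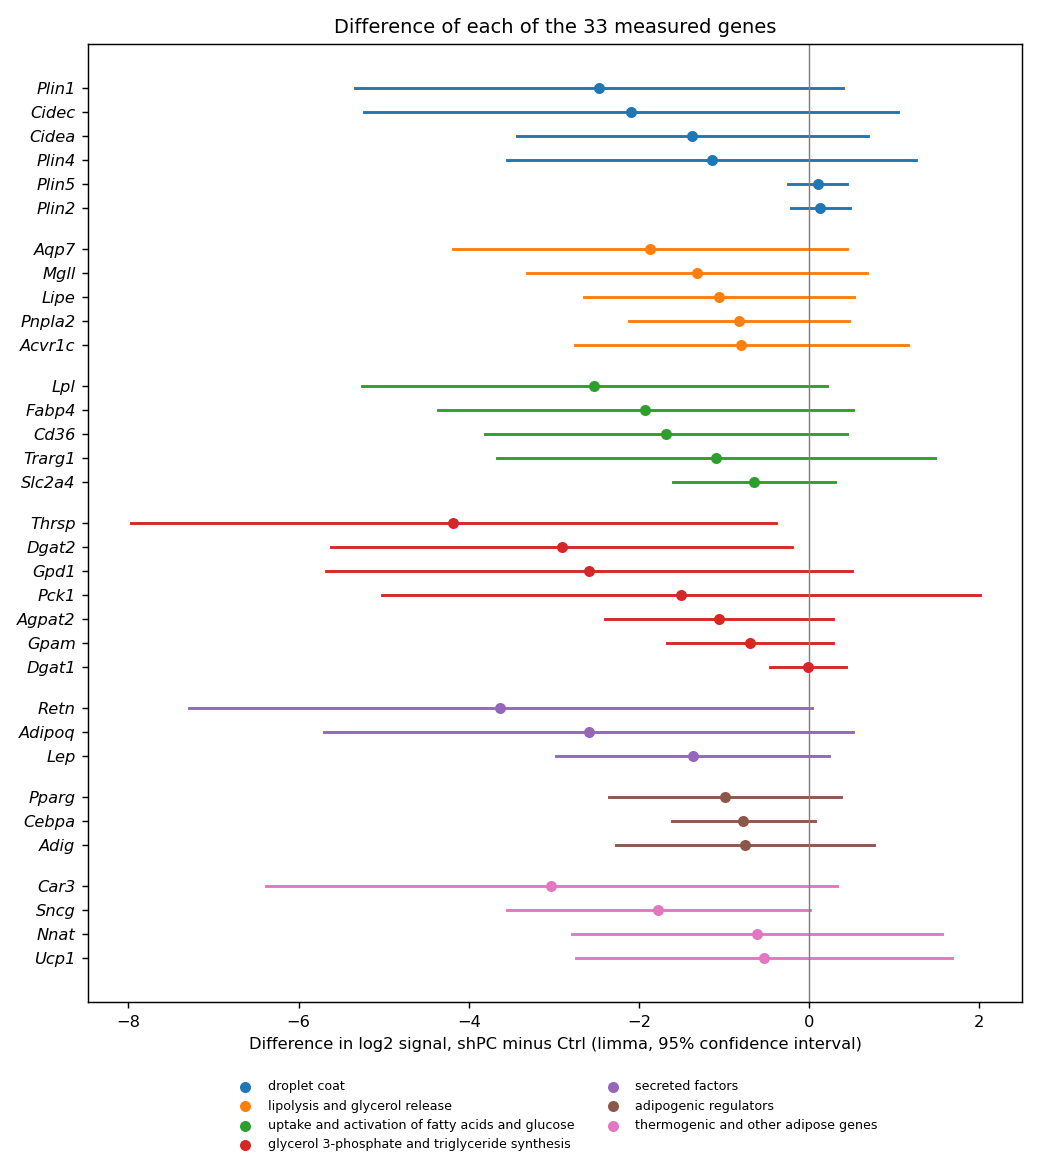
Difference of each of the 33 measured genes, shPC minus Ctrl in log2 signal, with its 95% confidence interval from limma. Thrsp has the difference farthest below 0, at -4.18, and Plin2, Plin5 and Dgat1 have narrow intervals around 0.

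The regions before the start sites are shown for 5 members, since most members varied together across the tumors and Plin2 did not. They are RefSeq sequences on GRCm38.p6, from 250 bases before to 50 after the start, 300 bases each, and were chosen after the values and the matches had been seen. Motifs were searched on both strands, and capitals mark 1 of them in each sequence. Other matches stand in lower case, 1 CCAAT and 1 AGGTCA outside the repeat in Cd36 and 1 CCAAT in Plin2. CCAAT, the NF-Y type box, is marked in Adipoq. TTGCNNAA, of the C/EBP type, is marked in Plin1. The direct repeat of the type bound by PPAR with RXR, which is AGGTCA, any base and AGGTCA again, is marked with 2 mismatches in Cd36, Aqp7 and Plin2, where it reads on the opposite strand.
Adipoq (chr16:23146286-23146585, plus strand): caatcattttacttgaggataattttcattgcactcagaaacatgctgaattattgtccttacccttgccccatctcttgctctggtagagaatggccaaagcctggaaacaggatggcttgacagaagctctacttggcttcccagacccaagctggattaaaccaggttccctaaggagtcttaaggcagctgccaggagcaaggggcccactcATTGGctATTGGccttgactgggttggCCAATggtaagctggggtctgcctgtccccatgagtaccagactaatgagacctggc
Plin1 (chr7:79732727-79733026, minus strand): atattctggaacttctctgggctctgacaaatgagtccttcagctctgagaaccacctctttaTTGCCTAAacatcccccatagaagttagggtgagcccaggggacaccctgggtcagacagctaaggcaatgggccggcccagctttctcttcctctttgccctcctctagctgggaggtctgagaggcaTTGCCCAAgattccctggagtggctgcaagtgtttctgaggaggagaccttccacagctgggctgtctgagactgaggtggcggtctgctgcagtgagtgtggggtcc
Cd36 (chr5:17835847-17836146, minus strand): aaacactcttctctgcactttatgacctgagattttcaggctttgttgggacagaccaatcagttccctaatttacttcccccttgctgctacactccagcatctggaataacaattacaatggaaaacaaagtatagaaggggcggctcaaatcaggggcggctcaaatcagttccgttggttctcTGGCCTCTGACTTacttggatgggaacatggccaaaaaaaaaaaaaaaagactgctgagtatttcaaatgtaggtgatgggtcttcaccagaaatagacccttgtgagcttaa
Aqp7 (chr4:41048087-41048386, minus strand): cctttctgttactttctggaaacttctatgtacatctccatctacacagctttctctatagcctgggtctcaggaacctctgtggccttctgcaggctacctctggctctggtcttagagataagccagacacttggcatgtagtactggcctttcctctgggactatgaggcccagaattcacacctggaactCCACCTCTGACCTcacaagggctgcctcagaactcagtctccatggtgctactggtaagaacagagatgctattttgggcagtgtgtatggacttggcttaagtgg
Plin2 (chr4:86670010-86670309, minus strand): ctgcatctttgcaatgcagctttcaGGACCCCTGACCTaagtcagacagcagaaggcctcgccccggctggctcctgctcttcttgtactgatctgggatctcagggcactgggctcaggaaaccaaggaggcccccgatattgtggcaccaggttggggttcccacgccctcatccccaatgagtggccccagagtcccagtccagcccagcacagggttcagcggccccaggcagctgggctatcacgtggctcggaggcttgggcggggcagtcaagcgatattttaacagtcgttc
The first marked base lay 63 bases before the start in Cd36, 56 in Aqp7 and 225 in Plin2. Adipoq held 3 CCAAT matches and 0 CG dinucleotides, and Plin2 held 10 CG dinucleotides.

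Of the measured members, 24 had sequences in the table, 33 in all. The direct repeat with at most 2 mismatches was found in 4 of the 33, against 3.86% of 32851 promoters of the same length. Its single site AGGTCA, which overlaps the repeat, was in 11 of 33, against 16.3%. TTGCNNAA was in 5 of 33, against 10.8%, CCAAT in 10 of 33, against 37.4%, and the TATA type box TATAAA in 2 of 33, against 13.6%. Several sequences belong to 1 gene and overlap, and a match is a description of letters, not of binding. The direct repeat was shared by Plin2, whose signal was nearly level, and by Cd36 and Aqp7, whose signals were not.

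The droplet coat was represented by 6 measured genes, 4 of them with differences below 0. Plin1 encodes perilipin 1, which guards the droplet of fat cells against lipases. It had log2 signals of 10.09, 4.49, 8.91, 3.99 and 4.10 in shPC 1 to 5, against 9.70, 7.62, 11.24, 6.58 and 8.79 in Ctrl 1 to 5. The shPC 2, shPC 4 and shPC 5 tumors lay below every Ctrl tumor, while shPC 1 and shPC 3 overlapped the Ctrl tumors. Its difference was -2.47 (standard error, SE, 1.31, limma adjusted p = 0.422), within the spread of the tumors (p = 0.159, two-sided exact permutation test). Cidec, a protein that fuses droplets into 1 large droplet, had the largest SD of the group, with 12.12, 5.77, 10.96, 5.06 and 6.72 in the shPC tumors and 11.25, 8.72, 12.89, 7.81 and 10.41 in the Ctrl tumors. The same 3 shPC tumors were lowest, and the difference was -2.09 (SE 1.43, limma adjusted p = 0.533), or -1.32 without shPC 4. Cidea, a relative with a high level in brown fat, had 6.76, 3.35, 6.99, 4.17 and 3.47 in the shPC tumors and 8.08, 4.34, 7.81, 4.79 and 6.58 in the Ctrl tumors. Here Ctrl 1 was the highest tumor and Ctrl 3 the next. Plin4, a perilipin of fat cells, had a difference of -1.14 and shPC signals between 5.47 and 10.10, against 6.20 to 11.62 in Ctrl tumors. The difference of Plin4 was -1.88 without shPC 1 and -0.31 without Ctrl 3.

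Plin2, the perilipin found on droplets of many cell types, was nearly level. It had 14.45, 14.24, 14.00, 13.90 and 14.05 in the shPC tumors, against 14.32, 13.70, 13.90, 13.93 and 14.13 in the Ctrl tumors. The groups overlapped and no tumor stood apart. Its difference was 0.13, with a 95% confidence interval of -0.22 to 0.48 and an SD of 0.228 within the groups, below that of most genes. The difference of Plin2 was 0.05 without shPC 1 and 0.21 without Ctrl 1. Plin5, a perilipin of oxidative tissues, had a difference of 0.10 (95% confidence interval -0.25 to 0.45), or 0.18 without shPC 1 and 0.003 without shPC 5, but its signals of 2.87 to 3.56 in shPC tumors and 2.89 to 3.26 in Ctrl tumors were dim in every tumor, at most at the 22.1 percentile of their array.

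**Figure D2:**
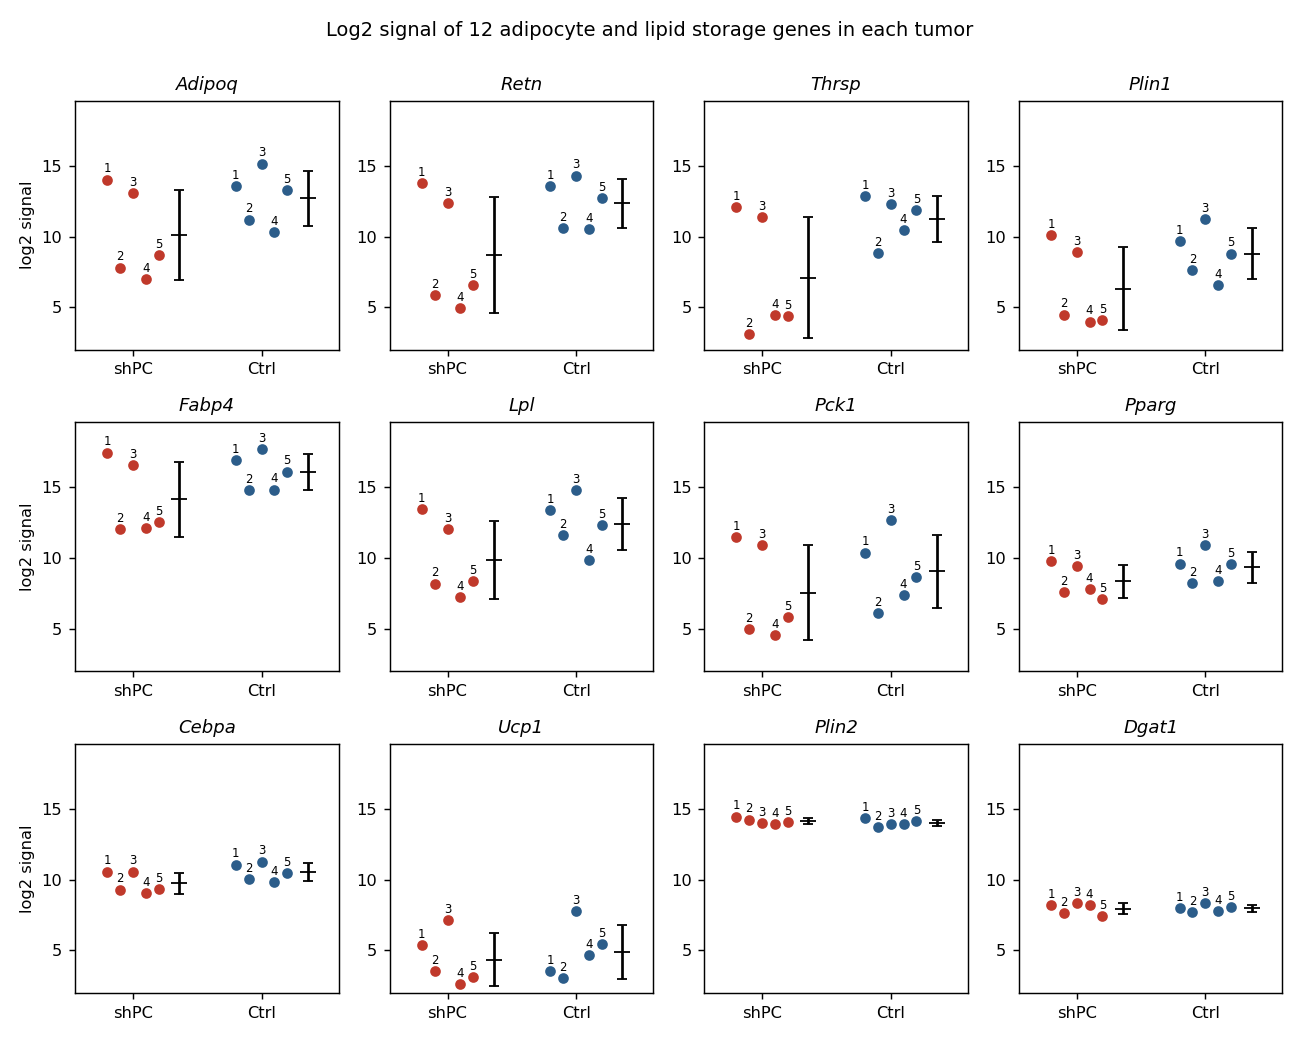
Log2 signal of 12 members in each tumor, shPC left of Ctrl, each point numbered by tumor, with bars for the mean and SD of each group (n = 5). In most panels shPC 2, shPC 4 and shPC 5 lie below all Ctrl tumors, whereas Plin2 stays between 13.70 and 14.45.

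The genes of lipolysis and glycerol release included 5 measured members, each with a difference below 0. Pnpla2 encodes the lipase that takes the first fatty acid off triglyceride. It had 13.69, 11.36, 13.41, 11.52 and 11.30 in the shPC tumors, against 13.53, 12.27, 14.45, 12.06 and 13.10 in the Ctrl tumors. The low tumors were again shPC 2, shPC 4 and shPC 5, and the difference of -0.83 (SE 0.59, limma adjusted p = 0.549) had the smallest SD of this group, 1.09, and was -0.48 without Ctrl 3. Aqp7, the channel through which glycerol leaves fat cells, had the largest SD, 1.97. Its signals were 9.35, 4.44, 7.85, 5.07 and 4.84 in the shPC tumors and 8.77, 6.89, 10.65, 6.18 and 8.43 in the Ctrl tumors, a difference of -1.87 (SE 1.05, limma adjusted p = 0.450). The lipases for the next steps, Lipe (hormone-sensitive lipase) and Mgll (monoglyceride lipase), had differences of -1.06 and -1.31. Acvr1c, a receptor of the TGF beta family that restrains lipolysis in fat cells, had -0.80. Without Ctrl 3 the differences were -0.69 for Lipe, -0.78 for Mgll and -0.32 for Acvr1c. The difference of Mgll was -0.76 without shPC 4, and that of Acvr1c was -1.43 without shPC 1.

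For uptake, 5 members were measured and all had differences below 0. Lpl, the lipase that frees fatty acids from circulating lipoproteins, had 13.47, 8.20, 12.03, 7.23 and 8.38 in the shPC tumors, against 13.37, 11.60, 14.78, 9.86 and 12.32 in the Ctrl tumors. Its difference was -2.52 (SE 1.24, limma adjusted p = 0.389, two-sided exact permutation p = 0.127). Cd36, a fatty acid receptor that endothelium and macrophages carry too, had 12.82, 8.89, 11.69, 8.43 and 8.54 in the shPC tumors and 12.29, 10.67, 14.01, 10.03 and 11.76 in the Ctrl tumors. Fabp4, the fatty acid binding protein of fat cells, had 17.44, 12.06, 16.57, 12.11 and 12.52 in the shPC tumors and 16.91, 14.78, 17.70, 14.83 and 16.11 in the Ctrl tumors. Both genes had 3 shPC tumors below the Ctrl range and the other 2 inside it, with differences of -1.68 for Cd36 and -1.93 for Fabp4. Slc2a4, the insulin-responsive glucose transporter of fat and muscle, spread least in this group. It had 6.56, 4.85, 5.92, 4.92 and 5.23 in the shPC tumors, against 6.31, 5.50, 7.53, 5.89 and 5.49 in the Ctrl tumors, with a difference of -0.65 (95% confidence interval -1.60 to 0.30). Trarg1, a protein of the vesicles that carry this transporter, had a difference of -1.10. Without Ctrl 3 the differences were -1.11 for Cd36, -0.30 for Slc2a4 and -0.44 for Trarg1, and that of Trarg1 was -1.99 without shPC 1.

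Triglyceride synthesis held both the widest and some of the narrowest spreads. Thrsp encodes Spot 14, a nuclear protein of lipid-making tissues. It had 12.08, 3.13, 11.35, 4.44 and 4.40 in the shPC tumors, against 12.87, 8.85, 12.30, 10.43 and 11.87 in the Ctrl tumors. The shPC tumors split into 3 low and 2 high ones, and the difference was -4.18 (SE 1.73, limma adjusted p = 0.311, two-sided exact permutation p = 0.103). The lowest Thrsp signal was dim, at the 15.7 percentile of its array. Dgat2, which adds the last fatty acid, had 12.25, 6.66, 10.84, 6.26 and 6.17 in the shPC tumors and 12.97, 9.72, 12.68, 9.86 and 11.50 in the Ctrl tumors. Its difference was -2.91 (SE 1.24, limma adjusted p = 0.324). Dgat1, an enzyme of the same reaction that many tissues use, was nearly level, with 8.19, 7.65, 8.33, 8.18 and 7.40 in the shPC tumors and 7.98, 7.68, 8.32, 7.78 and 8.06 in the Ctrl tumors. Its difference of -0.01 had a 95% confidence interval of -0.47 to 0.44 and changed sign under several alternative settings.

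Pck1, phosphoenolpyruvate carboxykinase, supplies glycerol 3-phosphate in fat by a route that begins with pyruvate carboxylase. It had 11.47, 4.96, 10.90, 4.54 and 5.85 in the shPC tumors, against 10.38, 6.11, 12.70, 7.39 and 8.68 in the Ctrl tumors. Within the groups it spread more than all members but Thrsp and Retn, and the difference was -1.51 (95% confidence interval -5.02 to 2.01), or -2.49 without shPC 1 and -0.60 without Ctrl 3. Gpd1, which makes glycerol 3-phosphate from a glycolytic intermediate, had a difference of -2.58. The acyltransferases of the early steps had smaller values, -0.70 for Gpam and -1.06 for Agpat2.

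Among the secreted factors, 3 were measured. Adipoq, adiponectin, had 14.02, 7.81, 13.06, 6.98 and 8.67 in the shPC tumors, against 13.56, 11.20, 15.14, 10.31 and 13.29 in the Ctrl tumors. Its difference was -2.59 (SE 1.42, limma adjusted p = 0.437, two-sided exact permutation p = 0.167). Retn, resistin, which mouse fat cells secrete, had 13.79, 5.87, 12.38, 4.92 and 6.57 in the shPC tumors and 13.54, 10.58, 14.30, 10.54 and 12.71 in the Ctrl tumors, a difference of -3.63 (SE 1.67, limma adjusted p = 0.358). Lep, leptin, the signal of fat stores to the brain, had 6.03, 3.55, 5.72, 3.87 and 4.32 in the shPC tumors and 6.91, 4.68, 8.17, 4.44 and 6.14 in the Ctrl tumors. All 3 had the same low shPC tumors, and Ctrl 3 was the highest tumor in each. The difference of Lep was -1.37, or -0.84 without Ctrl 3.

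The adipogenic regulators spread less than the hormones. Pparg had 9.80, 7.62, 9.41, 7.82 and 7.10 in the shPC tumors, against 9.60, 8.21, 10.94, 8.36 and 9.59 in the Ctrl tumors, a difference of -0.99 (SE 0.62, limma adjusted p = 0.496). Cebpa had 10.56, 9.30, 10.56, 9.03 and 9.32 in the shPC tumors and 11.05, 10.05, 11.27, 9.80 and 10.47 in the Ctrl tumors, with a difference of -0.77 and an SD of 0.689. Adig, adipogenin, a small protein of fat cells, had 7.15, 4.52, 7.48, 4.99 and 5.23 in the shPC tumors and 6.70, 5.98, 8.62, 5.45 and 6.40 in the Ctrl tumors. In all 3 the shPC 2, shPC 4 and shPC 5 tumors were below the Ctrl tumors and Ctrl 3 was highest. Without Ctrl 3 the difference of Pparg was -0.59, and that of Adig, -0.76 over all tumors, was -0.26, or -1.16 without shPC 3.

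The remaining members were less alike. Ucp1, the uncoupling protein of brown and beige fat, had 5.39, 3.56, 7.13, 2.60 and 3.11 in the shPC tumors, against 3.53, 3.04, 7.80, 4.65 and 5.43 in the Ctrl tumors. Only shPC 3 and Ctrl 3 passed 7, so the tumors with most Ucp1 signal were 1 of each group. The lowest Ucp1 signal was dim, at the 6.67 percentile of its array. Car3, a carbonic anhydrase abundant in fat and slow muscle, had 16.44, 9.42, 15.72, 8.79 and 10.67 in the shPC tumors and 16.38, 13.99, 17.39, 12.81 and 15.62 in the Ctrl tumors, a difference of -3.03 (SE 1.53, limma adjusted p = 0.403). Sncg, gamma synuclein, had 12.07, 10.48, 11.65, 8.39 and 7.90 in the shPC tumors and 11.53, 10.88, 13.29, 11.15 and 12.52 in the Ctrl tumors. For Sncg, shPC 2 lay closer to the Ctrl tumors than shPC 4 and shPC 5 did. Nnat, neuronatin, had signals of 4.88 to 7.86 in shPC tumors and 4.33 to 10.37 in Ctrl tumors, and its lowest tumor was Ctrl 4. The differences were -0.53 for Ucp1 and -0.61 for Nnat, and without Ctrl 3 they were 0.20 and 0.36.

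**Figure D3:**
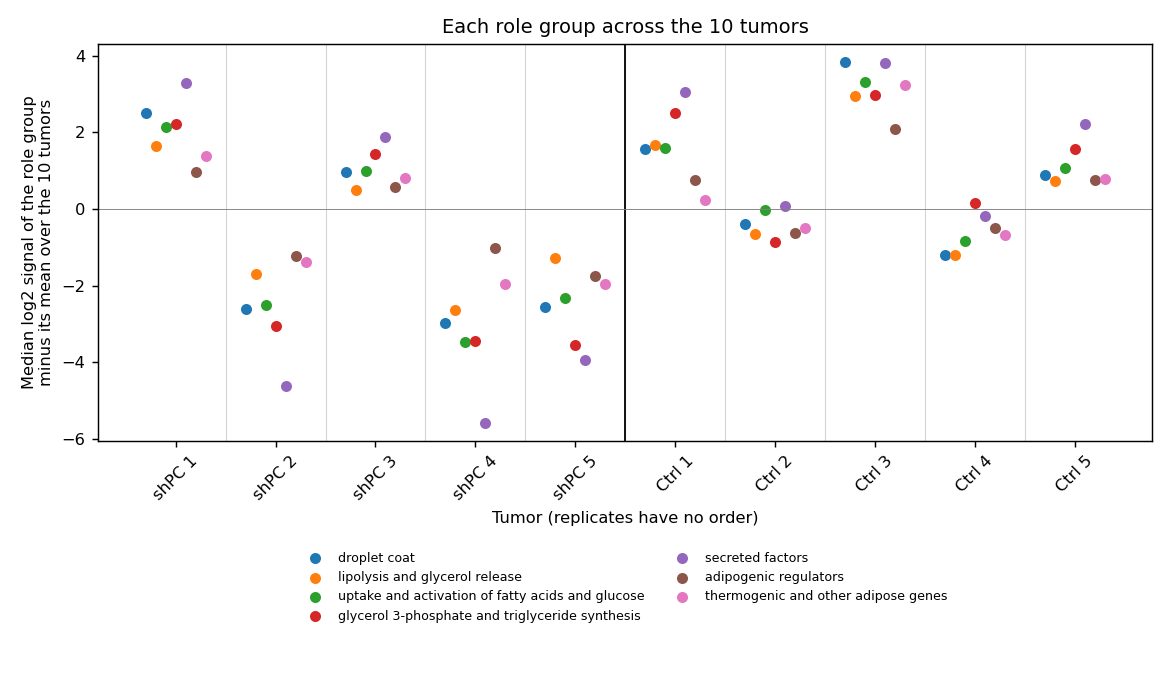
Median log2 signal of each of the 7 role groups per tumor, minus its mean over the 10 tumors. All groups of genes lie below 0 in shPC 2, shPC 4 and shPC 5 and above 0 in shPC 1, shPC 3 and Ctrl 3.

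The members ordered the tumors alike. In 28 of 33 members shPC 2, shPC 4 and shPC 5 each lay below all Ctrl tumors, a pattern held by 5.18% of all genes, and the exceptions were Plin2, Plin5, Dgat1, Ucp1 and Nnat. In 31 members shPC 1 and shPC 3 lay above the other shPC tumors, against 10.6% of all genes, and in 30 both lay within the Ctrl range, against 44.6%. Ctrl 3 was the highest of all tumors in 27 members, against 11.1% of all genes. The lowest Ctrl tumor was Ctrl 2 or Ctrl 4 in 32 members, with Slc2a4 the exception, against 36.7% of all genes. The median member signal was 11.47, 5.87, 10.84, 5.73 and 6.42 in shPC 1 to 5, against 11.05, 8.21, 12.26, 8.36 and 10.41 in Ctrl 1 to 5. These patterns were chosen after the values had been seen and are given without a test.

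**Figure D4:**
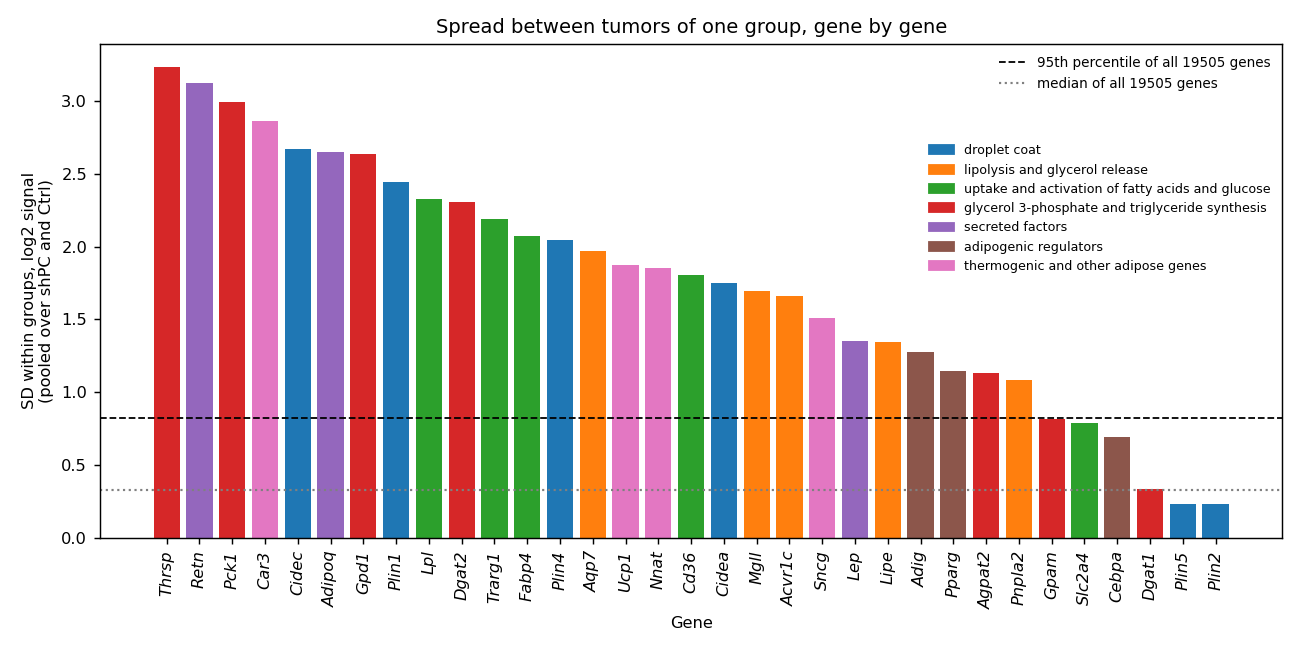
SD within the groups, in log2 signal, of each member as a bar coloured by role group, with lines at the median and the 95th percentile of all genes. The members reach 3.23 in Thrsp, while Plin2 and Plin5 lie under the median of all genes, 0.324.

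**Figure D5:**
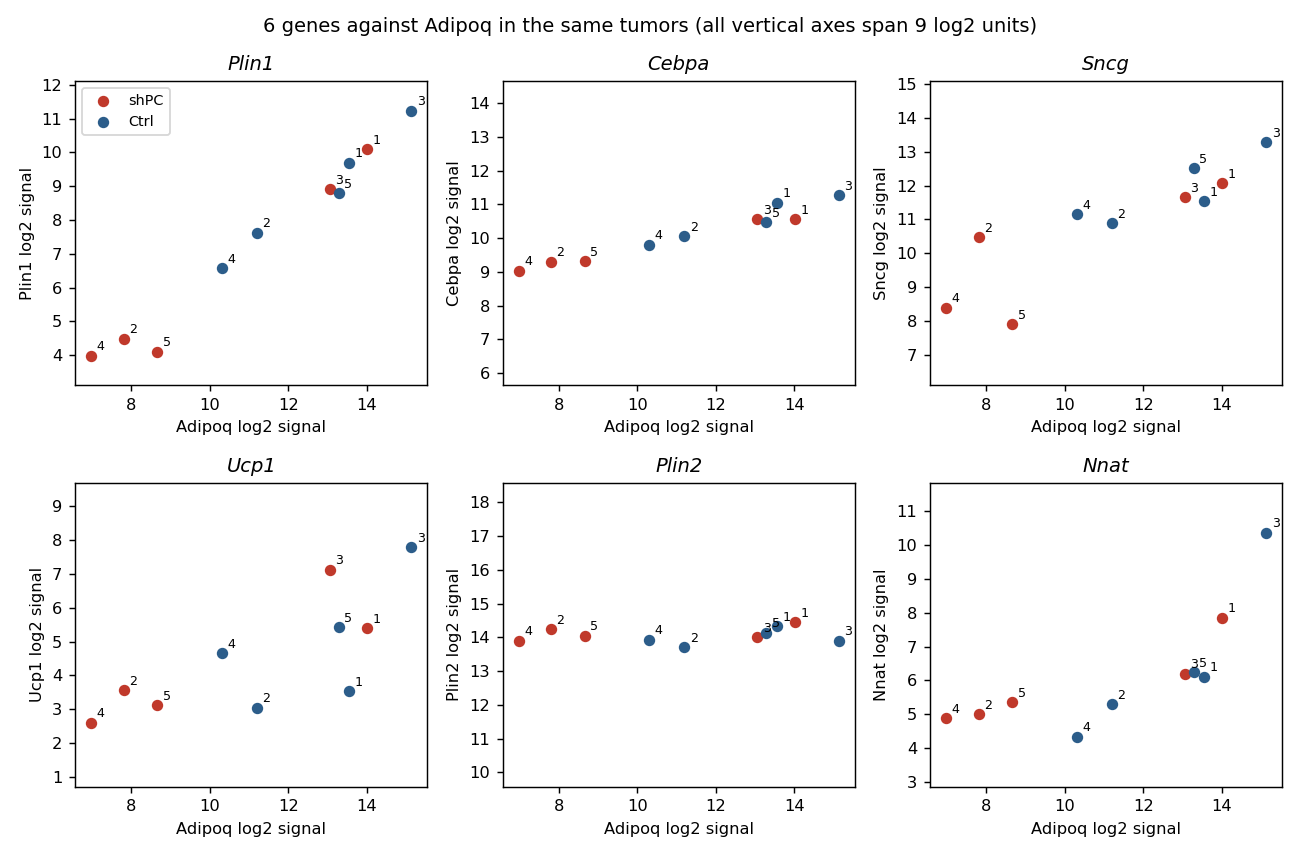
Log2 signal of 6 genes against that of Adipoq in each tumor, shPC and Ctrl tumors in different colours and numbered, with every vertical axis spanning 9 log2 units. Plin2 stays level over the whole range of Adipoq, from 6.98 to 15.14.

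Pcx, the target of the shRNA, had 9.91, 4.69, 9.39, 4.49 and 5.15 in the shPC tumors, against 10.43, 7.24, 11.01, 7.79 and 9.54 in the Ctrl tumors, with a difference of -2.48 (SE 1.19, limma adjusted p = 0.378). Its 3 lowest tumors and its highest were those of Adipoq, and its signal was not measured apart in tumor cells and in fat cells, which also express it.

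Genes outside the members were read in lists written from general knowledge. Of 28 other adipocyte genes 26 were measured and 22 had differences below 0, against 44.9% of all genes. Their mean signal was 7.51 to 9.22 in shPC tumors, against 8.08 to 9.76 in Ctrl tumors, lowest in shPC 4, shPC 2 and shPC 5. In 12 of the 26 these 3 tumors lay below all Ctrl tumors, a pattern held by 5.18% of all genes. Only 1 of the 26, the fatty acid receptor Ffar4, was under an unadjusted p of 0.05 on the lower side, against 6.25% of all genes. Its difference was -0.96 (limma adjusted p = 0.255). Of the 24 measured storage genes of many cell types 14 had differences below 0, with a median of -0.03. Their means were 8.98 to 9.52 in shPC tumors, against 9.15 to 9.68 in Ctrl tumors. Of 19 measured brown and beige genes 15 had differences below 0, against 44.9% of all genes, and the median of the list was -0.34. Ppargc1b, Tmem26 and Tnfrsf9, the last of which lymphocytes also express, were under the unadjusted threshold on the lower side, at -0.74, -1.96 and -0.81, 3 of 19 against 6.25% of all genes. In 4 of the 19 the shPC 2, shPC 4 and shPC 5 tumors lay below all Ctrl tumors, a pattern held by 5.18% of all genes. Tmem26 and Tnfrsf9 were lowest in shPC 1 and shPC 5, whereas most members had high signals in shPC 1. The means of this list were 5.64 to 6.58 in shPC tumors and 6.22 to 6.98 in Ctrl tumors.

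Markers of other cells of the fat pad differed between the tumors too, and their part in the members' values was not tested. In no list did a gene pass the adjusted test. Differences below 0, which 44.9% of all genes had, were found in 15 of 15 mammary epithelium markers, 12 of 13 lymph node markers, 15 of 15 leukocyte markers, 11 of 13 progenitor and stroma genes, 14 of 15 skeletal muscle markers, 10 of 13 macrophage markers and 2 of 13 endothelium markers. Under the unadjusted threshold on the lower side, where 6.25% of all genes lay, were 3 mammary epithelium, 3 lymph node, 11 leukocyte, 4 progenitor and stroma, 0 skeletal muscle, 2 macrophage and 0 endothelium genes. On the higher side, where 7.8% of all genes lay, were 1 progenitor and stroma, 1 macrophage and 1 endothelium gene. The mean of 15 mammary epithelium markers was 4.38 to 6.36 in shPC tumors and 5.65 to 7.59 in Ctrl tumors, highest in Ctrl 1 (7.59) and Ctrl 3 (7.51). In Ctrl 1 Krt5 was 14.24 and Krt14 14.67, against 4.18 to 5.85 and 3.51 to 5.69 in the other Ctrl tumors. The shPC tumors had 3.08 to 8.41 and 3.23 to 9.04, both highest in shPC 4. The list was not alike in Ctrl 1. Cdh1 and Trp63 were also highest there among the Ctrl tumors, whereas Krt8, Krt19, Csn2 and Ltf were lowest there. Krt8, Krt18 and Krt19 were highest in Ctrl 3. The mean of 13 lymph node markers was 5.30 to 6.48 in shPC tumors and 6.40 to 7.26 in Ctrl tumors. For 15 leukocyte markers it was 12.7 to 13.2 in shPC tumors and 13.3 to 13.7 in Ctrl tumors. Means of 13 progenitor and stroma genes were 8.86 to 10.00 in shPC tumors and 9.79 to 10.44 in Ctrl tumors, and those of 13 endothelium markers were 8.56 to 9.61 in shPC tumors and 8.22 to 9.37 in Ctrl tumors. Those of 13 macrophage markers were 12.4 to 13.0 in shPC tumors and 12.7 to 12.9 in Ctrl tumors. Skeletal muscle markers were high in Ctrl 1 alone, at a mean of 7.98, against 3.85 to 4.35 in the other Ctrl tumors and 3.95 to 4.31 in shPC tumors. Slc2a4 and Car3, which muscle also uses, were higher in Ctrl 3 than in Ctrl 1. The median signal of an array was lowest in shPC 5, at 6.79, against 7.01 to 7.17 in the other 9 tumors. Without Ctrl 1 and shPC 5 together, a choice made after seeing the data, the median difference of the members was -0.75. In that setting 0 members were under the unadjusted threshold on the lower side, against 973 of all genes.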

How the data were processed

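Whole M-Wnt tumors, 5 shPC and 5 Ctrl, were measured on Clariom S mouse arrays. The authors labelled RNA with the WT PLUS kit and used Transcriptome Analysis Console 4.0.1 for quality control and testing. The deposited values are log values, read here as log2; base and normalization are not given in the sources used here, and array maxima of 19.04 to 19.19 exceed a 16-bit scanner's log2 range. Of 22206 probe sets, 19572 name 1 gene and 2634 are not listed and were left out. For 55 genes with several probe sets, the one with the highest mean was taken, leaving 19505. Groups came from the labels. Genes were compared with limma 3.58.1 in R 4.3.3 (shPC minus Ctrl, all 10 tumors, no covariate), with Benjamini-Hochberg adjustment over all genes and a threshold of 0.05. Exact permutation tests used all 252 splits, the smallest p being 0.00794. The fit was tested on simulated data. Tables and promoter searches used Python 3.11.15. Values were given in every tumor for the members of largest and smallest SD in each role group and for 13 genes fixed by name, and Dgat2 was added after its values were seen. Members and lists were chosen with earlier results of these data known. Alternatives were quantile normalization, median centring, a filter on dim probe sets, trended robust variances and array weights (statmod 1.5.0). Others were a t-test with equal variances, averaged probe sets, a block for the replicate number and leaving out each tumor in turn. The number of arrays limits the precision.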

Additional observations from a re-analysis of the deposited data

Results flagged for a closer look

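The mean of the skeletal muscle markers in the Ctrl tumors had 1 tumor far from the others. Ctrl 1 had 7.98, against 3.85 to 4.35 in the other Ctrl tumors, and its gap to the nearest tumor was 0.88 of the group's range, above the critical 0.71 for 5 tumors. This was 1 of 74 groups examined, of which chance marks about 1 in 20. They were the shPC and Ctrl groups of each measured member, of Pcx and of the means of the other adipocyte, brown and beige, and skeletal muscle lists. The other marker lists were not examined in this way. No member was marked in this way.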

How the results depend on the processing

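Across all settings 0 members passed the adjusted threshold. Of 626 single member values under alternatives, 616 kept their direction and side of that threshold. The 10 that changed sign belonged to 3 genes. Dgat1 was 0.014 with quantile normalization, 0.085 with median centring, 0.023 with array weights and 0.13 without Ctrl 1 and shPC 5. Leaving out 1 tumor gave it -0.11 to 0.12, above 0 without shPC 2, shPC 5, Ctrl 3 or Ctrl 5. The same gave Ucp1 -1.23 to 0.20 and Nnat -1.15 to 0.36, both above 0 only without Ctrl 3. The 2 members under the unadjusted threshold became 4 with median centring, against 852 of all genes on the lower side, or with array weights, against 1106. They became 0 with trended robust variances (1198 of all genes), the t-test with equal variances (1045) or without Ctrl 1 and shPC 5 (973). Leaving out 1 tumor gave 0 to 18 such members, against 955 to 1338 of all genes on the lower side. There were 18 without shPC 1, 11 without shPC 3, 8 without Ctrl 4 and 7 without Ctrl 2. Without any 1 of the others there were 0. The median member difference with 1 tumor left out ran between -1.88 (without shPC 1) and -0.78 (without Ctrl 3). Over all genes, 0 passed the adjusted threshold, against 1 with median centring, 10 with trended robust variances and 0 to 4 when 1 tumor was left out. Median centring moved the median of all genes to 0.14 and the unadjusted split to 852 lower and 2180 higher genes, against 1219 and 1521. With the replicate number as a block, 26 members were under the unadjusted threshold on the lower side, against 1465 of all 19505 genes. Under the adjusted threshold there were 0 members. Over all 19505 genes same-numbered tumors deviated together only weakly (r of 0.0441 to 0.281 across genes, which are not independent). A correlation over the members alone was not computed. The median member signal was lowest in tumors 2 and 4 and highest in tumors 1 and 3 of both groups. The tumors numbered 5 were less alike, with 6.42 in shPC 5, near the low shPC tumors, and 10.41 in Ctrl 5. No source says that the numbers pair tumors, so they were taken as names, and a factor shared by same-numbered tumors was not tested. The filter on dim probe sets removed Plin5. The causes were not tested.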
